A study of Drosophila melanogaster with 8 samples.

Results

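The regions described here are the stretches of the Drosophila melanogaster genome that were listed as dFOXO-bound in chico heterozygotes and that were placed at the 3′ side of a gene. Each distinct region was assigned to the gene with the lowest rank number among those listed for it, here its first-ranked gene. That gene's own rank could be 2 or more, because each gene appears only once in the list. A region was kept when its centre lay in the 3′ part of that gene or downstream of it. Of 1331 chico regions, 563 (42.3%) met this rule. They comprised 530 regions inside a gene on its 3′ side (39.8% of all regions) and 33 regions downstream of a gene (2.48%). The remaining regions lay inside a gene on its 5′ side (627) or upstream of a gene (141).

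The study immunoprecipitated chromatin with an affinity-purified antibody against dFOXO from long-lived flies with reduced insulin signaling, and sequenced the ChIP DNA beside input DNA that had not been immunoprecipitated. The chico flies were y1; cn1 chico1/cn1; ry506 females, heterozygous for chico, aged 15 days and taken as whole organisms. Each ChIP sample thus averages over 200 to 250 animals, and each of the 2 genotypes had 2 biological replicates. The other genotype, in which insulin producing cells (IPCs) were ablated by RU486 induction of reaper through Dilp2-GeneSwitch, is used here only to ask which regions its list shares. Its flies were also females aged 15 days, and RU486 was fed for 15 days. No wild-type ChIP was among the samples analysed here, so a value says how ChIP compares with input within chico flies and not how chico flies compare with normal flies. Because whole flies were used, binding in a small cell population and weak binding in many cells cannot be told apart.

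dFOXO is the single fly FOXO protein, a forkhead transcription factor of the insulin pathway. When insulin signaling is high, Akt phosphorylates FOXO and keeps it out of the nucleus. When signaling is low, FOXO enters the nucleus and binds DNA. Chico is the insulin receptor substrate that passes the signal from the receptor to PI3 kinase. Binding near a gene's 5′ end falls where transcription starts, whereas a region at the 3′ side can lie in an intron, in the last exons, past the end of the gene, or at the start of a neighbouring gene. Enhancers in the fly genome occur in all of these places.

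For each region the deposited list gave 1 ChIP tag count and 1 scaled input value, since reads of both replicates had been pooled before regions were called. Across the 563 regions, ChIP tags ranged from 347 to 2595 and scaled input tags from 231 to 2405. Enrichment is the ratio of these values. With no separate replicate values there was no replicate error, and the 95% intervals (exact binomial) and p-values given below cover counting error only. The list had itself been selected for ChIP above input, so these values describe its regions and are not an independent test of binding. No sequence is shown, because no genome of the build used by the list was at hand.

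Most regions at 3′ sides of genes were weakly enriched. Inside genes, the median region had 687.5 ChIP tags against 622.5 scaled input tags, and the median enrichment was 1.098 (quartiles 1.082 and 1.130, range 1.070 to 1.505, n = 530). Downstream of genes, the median region had 646 ChIP tags against 576 scaled input tags, and the median enrichment was 1.104 (quartiles 1.086 and 1.165, range 1.071 to 1.305, n = 33). Medians in the 5′ classes were similar, at 1.106 inside the 5′ side and 1.103 upstream, and the ranges differed mainly at the top. The strongest region reached 2.518 in the inside 5′ class and 1.405 in the upstream class, so only the inside 5′ class rose above the maximum inside the 3′ side. These differences between classes were not tested. An enrichment of at least 1.2 was found for 13 of 530 regions inside the 3′ side (2.45%) and for 2 of 33 downstream regions (6.06%), against 5.63% of all chico regions, 8.77% of those inside the 5′ side and 3.55% of those upstream. Among the 100 strongest chico regions, 25 lay inside a 3′ side and 4 lay downstream.

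**Figure D1:**
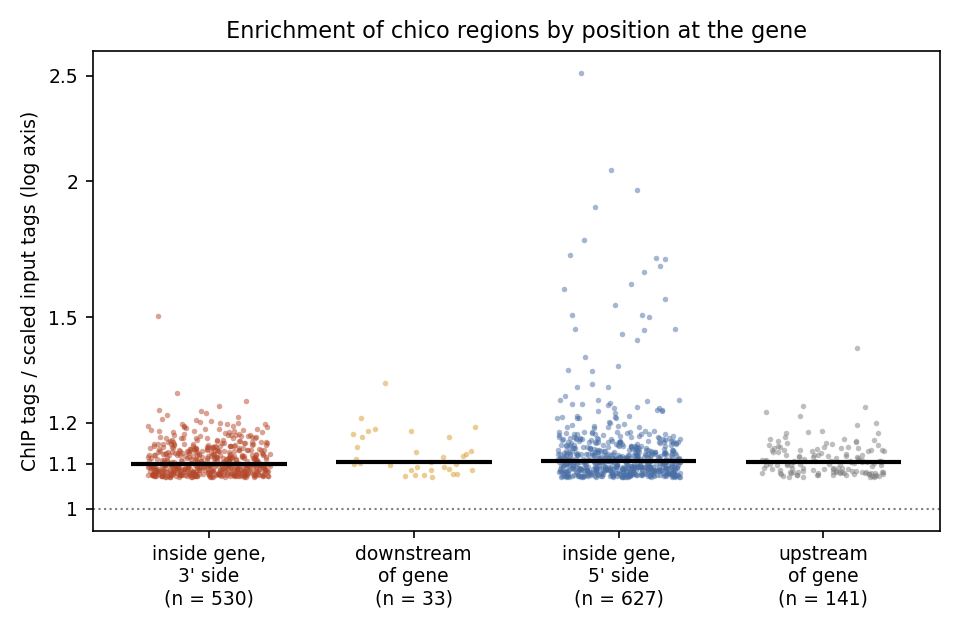
Enrichment (ChIP tags over scaled input tags, log axis) of each of the 1331 chico regions by its position at the first-ranked gene, with black bars at the class medians and a dotted line where ChIP equals input. The 530 regions inside a 3′ side and the 33 downstream regions share the low bulk of the 5′ classes, with medians of 1.098 and 1.104, and only 1 of them rises above 1.5.

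Each region was tested with an exact one-sided binomial test of ChIP against scaled input tags. Benjamini-Hochberg adjustment covered the 26819 candidate regions that the deposited p-values above 0 imply. An adjusted p of 0.01 or less was reached by 1 of 530 regions inside the 3′ side (0.189%) and by 1 of 33 downstream regions (3.03%). Over all chico regions the share was 2.70%, and 33 of the 36 regions that passed lay inside a 5′ side. Before adjustment, p was under 0.05 for 308 of 530 regions inside the 3′ side (58.1%) and for 20 of 33 downstream regions (60.6%), against 61.4% of the whole list. Neither share stood far from that of the list. At the median depth of these regions, 1303 tags in ChIP and input together, an enrichment of about 1.098 was needed for an unadjusted p under 0.05 and about 1.27 for an adjusted p of 0.01. Most regions of both classes lay below the second value, where a single region could not pass at this depth. The calls also turned on the input scaling. With the input lowered by 5%, 38 regions inside the 3′ side and 3 downstream regions passed, and with the input raised by 5% none did in either class.

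The strongest region at a 3′ side, 17th among all chico regions, lay inside CG34354, on chromosome 3R from 24020713 to 24021436 in the coordinates of the list, whose genome build is not given in the sources used here. It held 347 ChIP tags against 231 scaled input tags, the fewest of any region in either class. Its enrichment was 1.505 (95% interval 1.268 to 1.782, exact binomial adjusted p = 0.000691). It was also the only one of the 563 regions with a deposited p-value above 0, the other 562 being listed at 0. Its deposited p of 7.99e-07 equals the exact binomial p found here, to the digits given. A listed 0 did not mark a smaller exact binomial p, which was 0.05 or more for 235 of the 563 regions. Its place at a 3′ side was marginal: CG34354 spans 92.4 kb, and the region's centre lay 52.5% of the way along it, 43878 bp before the 3′ end.

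Second inside a gene was vri, which encodes vrille, a bZIP transcription factor of the circadian clock and one of the genes the study examined singly. By ChIP with gene-specific qPCR, the study reported significant dFOXO enrichment at the promoters of all these genes in both insulin mutants against wild type. That assay compared mutants with wild type at promoters. It is not part of the counts used here, which compare ChIP with input. The vri region on chromosome 2L, from 5306264 to 5307134, held 658 ChIP tags against 515 scaled input tags. Enrichment was 1.279 (1.137 to 1.437), and the exact binomial adjusted p of 0.0120 lay just outside the threshold. The centre lay 4297 bp before the end of a gene of 11.4 kb. It was 7052 bp from the gene's 5′ end, so the region was not at that end. A pair of homeobox genes came next. The region in slou, a muscle identity gene, held 612 against 488 tags (enrichment 1.256, exact binomial adjusted p = 0.0530), and the region in Vsx1, a gene of the visual system, held 662 against 533 tags (1.242, exact binomial adjusted p = 0.0533). Both lay within 4 kb of the 3′ end, at 3785 and 3919 bp.

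The rest of the 10 strongest regions inside genes were of mixed function. The region in dpr2, which encodes an immunoglobulin-domain protein of the neuronal surface, had an enrichment of 1.234 from 576 against 467 tags. That in DopR2, a dopamine receptor, had 1.229 from 593 against 483 tags. CG32103, named SCaMC in the Release 6 gene table and a member of the calcium-binding mitochondrial carriers, had 1.225 from 584 against 477 tags. CG6678 (1.219), CG13611 (1.214) and CG11160 (1.209) completed the group. In the Release 6 gene table CG13611 is named shps and CG11160 is named SmydA-4. The lower bounds of all 10 intervals lay above 1, the lowest being 1.071 in CG13611. Just below them, the region in EcR, the ecdysone receptor, was deeper. It held 957 against 798 tags, for an enrichment of 1.199 (1.091 to 1.319) and an exact binomial adjusted p of 0.0479, and it lay 30297 bp before the 3′ end of a gene of 78.8 kb.

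**Figure D2:**
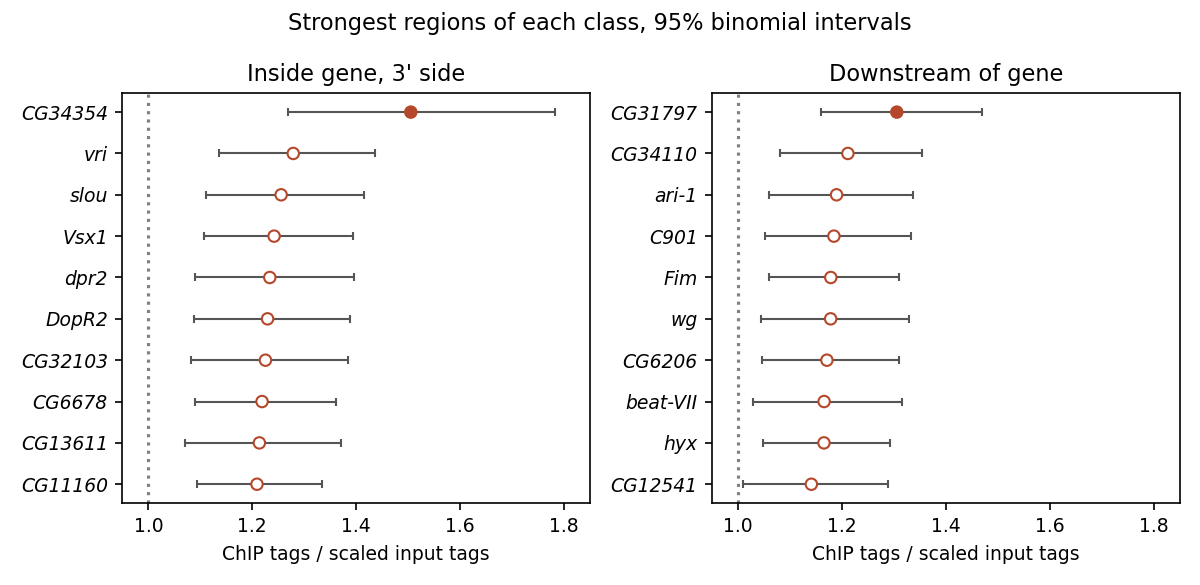
Enrichment of the 10 strongest regions of each class (ChIP tags over scaled input tags, named by the first-ranked gene), with 95% exact binomial intervals that cover counting error only. Of the downstream genes drawn, only CG31797, wg and CG6206 held rank 1 for their regions. Filled points mark the regions that passed after adjustment, CG34354 inside its gene and CG31797 downstream, and the dotted line marks ChIP equal to input, which all 20 intervals exclude.

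The strongest downstream region lay past the 3′ end of CG31797, on chromosome 2L from 19257333 to 19258677. It held 646 ChIP tags against 495 scaled input tags, for an enrichment of 1.305 (1.159 to 1.470, exact binomial adjusted p = 0.00334). Its centre lay 1522 bp past the end of the gene, which is 2.61 kb long. No other gene was listed for it. In the Release 6 gene table the next non-overlapping protein-coding gene past that end is drl, which encodes derailed, a receptor for Wnt5. For drl and the other next genes named below, the distance from the region was not measured. The second region, 5804 bp past the end of CG34110, held 682 against 564 tags (1.211, exact binomial adjusted p = 0.159), and the next gene in the table is danr, a transcription factor of the distal antenna.

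The region downstream of wg, the founding fly Wnt ligand and another gene the study examined singly, lay on chromosome 2L from 7318274 to 7319492. It held 591 ChIP tags against 502 scaled input tags, with an enrichment of 1.178 (1.043 to 1.329). The exact binomial p was 0.00387 before adjustment and 0.549 after it. Its centre was 2628 bp past the end of wg and 11722 bp from the 5′ end of wg. The next gene in the Release 6 table is another Wnt ligand, Wnt6. The other downstream regions among the 10 strongest lay past ari-1, a ubiquitin ligase of the ariadne family (1.189), C901 (1.184), the actin-bundling gene Fim (1.178), the lysosomal mannosidase gene CG6206 (1.171), beat-VII of the beaten path family (1.165), hyx of the Paf1 complex (1.165) and CG12541 (1.141). The intervals of these regions overlap one another. Among the 10 strongest downstream regions, only those of CG31797, wg and CG6206 were assigned to a gene of rank 1. The centres of the C901, Fim and CG6206 regions lay within other listed genes, Myo10A, f and RluA-1.

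At the low end, both classes stopped at the same value. The weakest region inside a gene was in Spargel, the fly PGC-1 gene, with 777 ChIP tags against 727 scaled input tags and an enrichment of 1.070 (0.965 to 1.184). The weakest downstream region lay past sty, which encodes the receptor tyrosine kinase inhibitor sprouty, with 697 against 651 tags and an enrichment of 1.071 (0.961 to 1.193). The minimum in the inside 5′ class was also 1.070, so this floor belonged to the list and not to the position at the gene. The lower interval bound was above 1 for 209 of the 530 regions inside genes (39.4%) and for 14 of the 33 downstream regions (42.4%). Over all chico regions the share was 41.6%.

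The 2 classes lay at genes of similar length. Genes with a region inside the 3′ side had a median length of 4.69 kb (quartiles 2.32 and 13.5 kb, n = 530), from 273 bp in CG14809 to 172934 bp in Rbp6. Genes with a downstream region had a median length of 5.51 kb (quartiles 2.95 and 19.2 kb, n = 33), from 1842 bp in r2d2, a partner of Dicer-2, to 48541 bp in the homeobox gene Lim1. The median for the inside 5′ class was 4.84 kb. Enrichment varied little with gene length. Inside the 3′ side, median enrichment was 1.095 in the 97 genes under 2 kb and 1.112 in the 95 genes over 20 kb, and an unadjusted p under 0.05 was found for 47.4% and 63.2% of them. Across the 530 regions Spearman's rho between gene length and enrichment was 0.069. The corresponding rho across the 33 downstream regions was 0.13. Enrichment fell slightly with the number of tags, with a rho of -0.16 inside genes and -0.31 downstream. These correlations share the pooled libraries, and tag number enters the ratio itself.

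**Figure D3:**
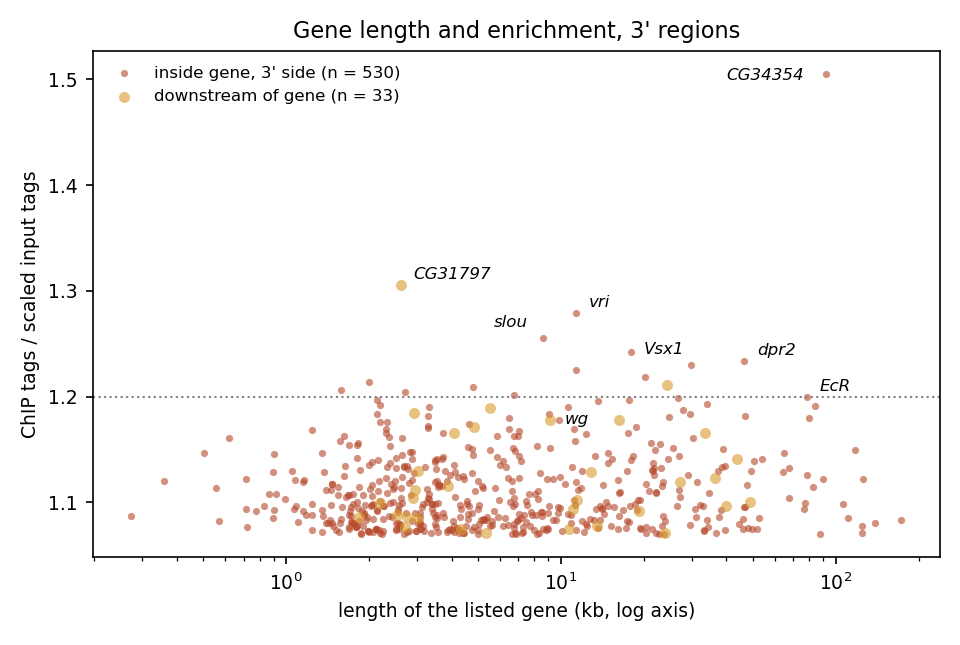
Enrichment (ChIP tags over scaled input tags) against the length of the first-ranked gene (kb, log axis) for the 530 regions inside a 3′ side and the 33 downstream regions, with a dotted line at 1.2. Points are spread over all lengths with a rho of 0.069 inside genes, and the 15 regions above the line lie at genes from 1.58 kb (CG31874) to 92.4 kb (CG34354).

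Inside genes, 1170.5 bp separated the median region centre from the 3′ end. The distance was 1163 bp for the 277 genes on the plus strand and 1204 bp for the 253 on the minus strand. Within 1 kb of the 3′ end lay 216 of the 530 centres, and within 5 kb lay 458. The extremes were 3 bp, at the proteasome subunit gene Prosbeta2R1, and 51692 bp, at the zinc finger gene luna. Most regions were wholly within the gene (438), and 93 contained its 3′ end. For 24 the centre lay beyond the annotated end while the region was still classed as inside.

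Along the gene, the median centre was 69.0% of the way from the 5′ to the 3′ end. The class begins at the middle of the gene, so its first members are mid-gene regions: 154 of 530 centres lay between 50% and 60% of gene length, in genes with a median length of 2.60 kb. These 154 regions had a median enrichment of 1.098 and held 6 of the 13 regions at 1.2 or above, CG34354 among them. On the other side of the boundary, 170 regions of the inside 5′ class lay between 40% and 50%, with a median of 1.102 and 1 region at 1.2 or above. Between 90% and 100% of gene length lay 52 regions, and 1 of them, in CG6678, was at 1.2 or above. In contrast, 22 of the 75 inside 5′ regions centred before the gene's start were at 1.2 or above. The medians on both sides of the middle of the gene were thus close, and the high values sat near the start of genes in the 5′ class.

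Downstream, the median centre was 1692 bp past the 3′ end, at 1779 bp for 18 plus-strand genes and 1574 bp for 15 minus-strand genes. The nearest was 779 bp past CG3823 and the farthest 9206 bp past Caps, a gene for regulated secretion on chromosome 4. Caps had the most tags of the downstream class, with 1250 in ChIP against 1140 in scaled input (enrichment 1.097, exact binomial p = 0.0129). Within 1 kb of the end lay 6 regions, of which 1 had an unadjusted p under 0.05. Of the 9 regions over 5 kb past the end, 7 had such a p. The share over all chico regions was 61.4%, and these groups are small. Across all 33, Spearman's rho between distance and enrichment was 0.30, as a description. For 18 of the 33 regions no listed gene held rank 1, against 13 of 530 inside genes, because each gene appears only once in the list. For those regions a nearer gene may have been listed elsewhere, and 5 of the 33 centres lay within another listed gene, such as Fim within f and r2d2 within cdc14.

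**Figure D4:**
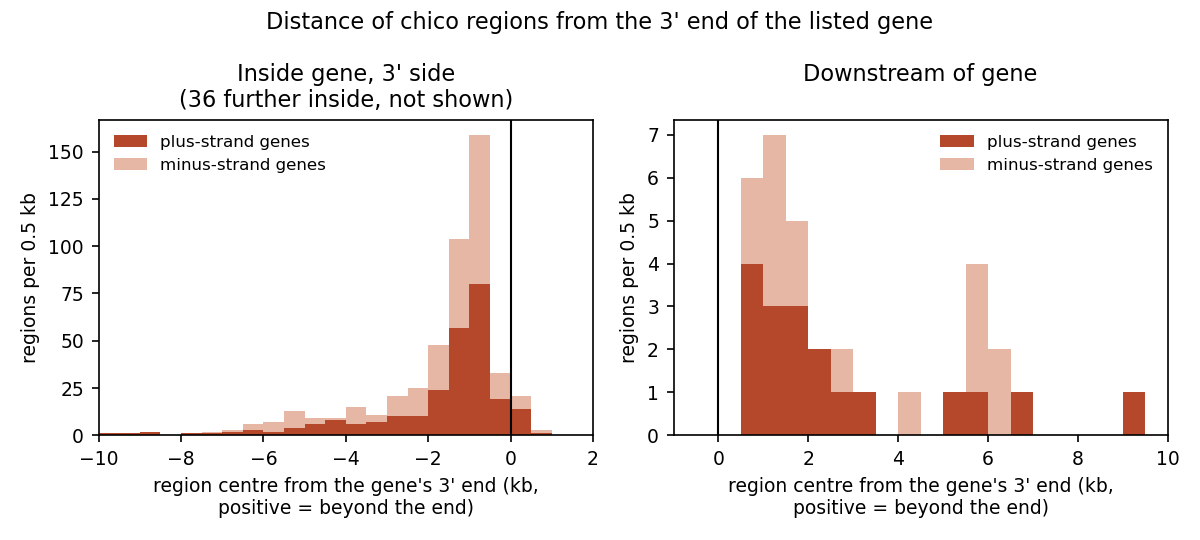
Number of regions per 0.5 kb by distance of the region centre from the 3′ end of the first-ranked gene (kb, negative inside the gene, positive beyond its end), stacked by strand. Inside genes the 530 regions have a median centre 1170.5 bp before the end (36 regions more than 10 kb inside not drawn). The 33 downstream regions lie between 779 and 9206 bp past it.

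A region at the 3′ side of one gene can lie at the start of the next. Other genes were listed for 243 of the 530 regions inside genes (343 genes) and for 7 of the 33 downstream regions (7 genes). The median distance from the centre to the nearest of their 5′ ends was 2769 bp inside genes and 3868 bp downstream. Within 1 kb of the centre, another listed gene's 5′ end was found for 22 of 530 regions (4.15%) and for 1 of 33. The same 23 regions were counted when the genes of both fly genotypes' lists were searched. These counts cover listed genes only. The 22 regions involved 24 other genes, of which 15 lay on the same strand as the first-ranked gene and 9 on the opposite strand, and 7 of the 22 regions contained the 5′ end of at least 1 of them. Their median enrichment was 1.088, and 7 of 22 had an unadjusted p under 0.05, against 61.4% of the list. None passed after adjustment. Median ChIP tags were 629 in these 22 regions and 685 over all chico regions, and shares by p-value also depend on depth.

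The strongest of these 22 regions was assigned to CG5235 and covered the start of Taspase1, a threonine protease gene that the study examined singly. This region on chromosome 3L, from 16079098 to 16080803, held 937 ChIP tags against 827 scaled input tags (enrichment 1.134, interval 1.031 to 1.246, exact binomial p = 0.00472, adjusted p = 0.590). Its centre lay 672 bp inside Taspase1 from the 5′ end and 779 bp past the end of CG5235, and both genes are on the minus strand. The next 4 pairs were CG16852 with CG16853 (1.128), the zinc finger gene sbb with CG14505 (1.126), the ribonucleotide reductase gene RnrS with CG33145 (1.123), and Hex-t1 with Hex-t2, a tandem pair of hexokinase genes (1.117). In the sbb pair the centre lay 375 bp inside CG14505 from its 5′ end and 24537 bp before the end of sbb. The single downstream case lay 5641 bp past CG13606 and 730 bp upstream of CG5515, with 541 against 491 tags (enrichment 1.102, exact binomial p = 0.0636).

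The gene's own start was near more often than a neighbour's. In short genes both ends fall close together: 61 of the 530 regions inside the 3′ side had their own gene's 5′ end within 1 kb of the centre, and 16 contained it. Together with neighbours, 80 of 530 regions (15.1%) had some listed 5′ end within 1 kb, against 374 of 627 inside the 5′ side (59.6%). The 80 regions had a median enrichment of 1.093, and 35 of them had an unadjusted p under 0.05, against 273 of the 450 regions inside the 3′ side without a listed 5′ end near (60.7%) and 61.4% of all chico regions. Median ChIP tags were 654 in the 80 regions and 704 in the 450, and shares by p-value also depend on depth. Much of the contrast of 15.1% with 59.6% follows from how the classes were defined, since a region inside the 3′ side is nearer its own gene's 3′ end. The gene's own 5′ end was near for 61 of 530 regions, against 369 of 627 inside the 5′ side. Another gene's 5′ end was near for 4.15%, against 5.90% inside the 5′ side and 4.73% over all chico regions. Regions inside the 3′ side that were near a listed 5′ end had no higher median than those without.

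Counts of known pathways among the first-ranked genes were read against the share of all chico regions that lay at 3′ sides, 42.3%. The lists describe which genes were present, and no list was tested. At 3′ sides, none of the listed genes had a region that reached an adjusted p of 0.01 or less by the exact binomial test. Passing calls for listed genes at 5′ sides were not counted, although those genes are within the first-ranked totals below. Of the 46 insulin and TOR genes searched, 6 were first-ranked at a chico region, and 3 of these were at 3′ sides. They were the adaptor gene Lnk (846 against 751 tags, enrichment 1.128, exact binomial p = 0.00932), melt (1.090, exact binomial p = 0.0760), and, downstream by 6956 bp, dm, the fly Myc gene (562 against 498 tags, 1.129, exact binomial p = 0.0265). Genes were searched by exact symbol, so any listed under another name would be missed. None of 23 autophagy symbols was found among the 2042 listed genes. No share over all genes was computed to set beside that count.

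Wnt pathway genes were first-ranked at 9 chico regions, 5 of them at 3′ sides, and all 5 had an unadjusted p under 0.05, against 61.4% of all chico regions. Beside wg they were Drl-2 (759 against 658 tags, 1.155) and dnt (626 against 549 tags, 1.141), both receptors of the derailed family, the glypican gene dlp (623 against 542 tags, 1.150), and the kinase gene CkIIalpha, downstream by 1866 bp (633 against 568 tags, 1.116). In smaller pathways the counts were low. The BMP and activin list gave the follistatin gene Fs (1.140) and the Smad gene Mad (1.083), of 5 first-ranked genes. The Notch list gave the ligand genes Ser (1.149) and Dl (1.087) and the effector Su(H) (1.071), of 9. The EGFR and Ras list gave the FGF genes ths (1.137) and pyr (1.094), Ras85D (1.080) and sty (1.071), of 5. The JNK and stress list gave the TNF gene egr (1.143), Tak1 (1.096) and msn (1.094), of 6. The Hedgehog list gave smo (1.084), and the Hippo list gave sd (1.075). The centre of the smo region lay 469 bp past the end of smo and 645 bp inside CG11601 from the 5′ end of CG11601. An unadjusted p under 0.05 was found for 1 of the 2 BMP and activin genes and 2 of the 3 Notch genes. It was found for 1 of the 4 EGFR and Ras genes, 1 of the 3 JNK and stress genes, and neither smo nor sd.

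Larger lists came from development and the nervous system. Patterning transcription factors were first-ranked at 47 chico regions, of which 17 were at 3′ sides, and 13 of the 16 inside genes had an unadjusted p under 0.05, against 61.4% of all chico regions. Their median enrichment was 1.121, against 1.103 over all chico regions. After vri the highest were bap (1.158), zfh1 (1141 against 987 tags, 1.156), ara (1.141) and ab (1.139). Ion channel and synapse genes gave 10 of 26, all inside genes, and 9 of the 10 had an unadjusted p under 0.05, against the same 61.4% (median enrichment 1.136). They included DopR2, the potassium channel gene eag (602 against 505 tags, 1.193), the calcium channel subunit gene Ca-beta (844 against 729 tags, 1.158), the octopamine receptor gene Oamb (1.151) and the glutamate receptor gene GluRIIC (1.143). Axon guidance and adhesion genes gave 13 of 22, with a median of 1.087 over the 11 inside genes. An unadjusted p under 0.05 was found for 5 of these 11, below the same 61.4%, and for the 2 downstream. Muscle and cytoskeleton genes gave 5 of 12, with the myosin light chain gene Mlc1 highest (1.145), and 3 of the 5 had an unadjusted p under 0.05.

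Nuclear receptors were first-ranked at 10 chico regions, 5 of them inside the 3′ side, and all 5 had an unadjusted p under 0.05, against 61.4% of all chico regions. After EcR came tll (1.116), knrl (1.115), Hr46 (1.097) and the ecdysone-induced gene Eip78C (1.086). Of these, tll and knrl also belonged to the patterning list and are counted in both.

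Few regions at 3′ sides were shared with the IPC-ablated flies. At least 1 bp overlapped a region of the IPC list of 763 regions for 24 of the 530 regions inside genes (4.53%) and for 1 of the 33 downstream regions. The share was 7.97% inside the 5′ side, 4.96% upstream and 6.16% over all chico regions. The chico enrichment of the 24 ranged from 1.075 in CG16716 to 1.199 in CG12029, named dar1 in the Release 6 gene table. The IPC regions they met were broader in each case, with widths of 2721 to 39401 bp (median 14496 bp) against 1135 to 2503 bp (median 1453 bp) for the chico regions. Their ratios, which ranged up to 1.057 at Oaz and stood at 1.011 at CG12029, are thus averages over wider stretches and are not compared with the chico ratios. The downstream case was CG42524, with 674 against 601 tags over 1546 bp in chico flies (enrichment 1.123). The IPC region it met was 15001 bp wide (1.021). Neither of the regions that passed in chico flies was among those shared.

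By chromosome arm, regions at 3′ sides made up 53.3% of the 152 chico regions on 3L, 43.5% of 253 on 2L, 42.4% of 399 on 3R, 38.7% of 243 on 2R and 38.5% of 275 on X. Chromosome 4 had 3 of 9. Median enrichment of these regions lay between 1.093 and 1.102 on every chromosome arm, including 3L, where their share was highest. Input had been scaled by a separate factor for each arm, so levels on different arms rest on different scalings.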

How the data were processed

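Whole-fly ChIP and input DNA was sequenced by the authors on Illumina (CASAVA 1.6 and Bowtie, per the submitters' processing notes). Reads of 2 replicates were pooled by the authors, and regions were called with PeakSeq at a false discovery rate of 0.01, with genes listed around each centre. The deposited chico list gives ChIP tags as counts, scaled input tags as a score (input multiplied by a factor per chromosome arm, rounded to whole numbers), their ratio, a signal height, an excess score, and p-values, of which 1311 regions are listed at 0. The authors' deposited ratio is the enrichment reported. Tag counts limit the precision: library totals were not analysed here, and PCR duplicates could narrow intervals wrongly.

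One row was taken per region, by lowest gene rank. Where rows tied (198 regions), the gene at the smaller listed distance was taken. This was chosen after seeing the data. Each region was tested with an exact one-sided binomial test (SciPy 1.17.1), adjusted over 26819 candidate regions. The test was checked on simulated data. Regions named are those that passed, the 10 strongest of each class, the 5 strongest of each class near another listed 5′ end, the extremes of length, distance and enrichment, genes the study examined singly, and members of hand-written lists. EcR, the distal examples and the IPC examples were named after their values were seen. The members and lists were chosen with earlier results of these data known. Gene names matched a Release 6 table for 533 of 563 genes, by symbol or CG number on the same arm, and that table was used for names and neighbours only. Alternatives changed the adjustment, threshold, input scaling, class rule and distance windows.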

Additional observations from a re-analysis of the deposited data

How the results depend on the processing

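The number of regions called depended on the test's settings. Inside the 3′ side, where 1 region passed, 18 passed when the adjustment covered only the listed regions, 38 with the input lowered by 5%, 0 with it raised by 5%, and 308 at an unadjusted p under 0.05. Downstream, where 1 region passed, the same settings gave 2, 3, 0 and 20, an adjusted p of 0.001 gave 0, and counting a region as downstream of any gene listed for it gave 3. A two-sided test gave 1 in each class. Another gene's 5′ end lay near 22 regions inside the 3′ side at 1 kb, 3 at 500 bp, 82 at 2 kb, 73 when measured from the nearest edge, and 8 when it had to fall inside the region. Downstream, the count of 1 became 0 at 500 bp and 0 for a 5′ end inside the region. The median distance to the 3′ end was 329 bp inside and 937 bp downstream from the nearest edge, and 3785 and 3663 bp for the regions at 1.2 or above, which are 13 and 2. Median enrichment lay between 1.098 and 1.099 inside the 3′ side and between 1.097 and 1.108 downstream under the alternatives tried, and overlaps with IPC regions were the same when a larger share of the region had to be covered. Other alternatives were chosen after seeing the data. Taking tied genes in file order left 486 regions inside the 3′ side and moved 44 to the upstream class. Keeping only regions with a gene of rank 1 left 517 inside and 15 downstream. No paired analysis was possible because the reads of both replicates were pooled before regions were called. Depth limits what can be seen to enrichments of about 1.27 at the median tag number.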
